A study of Caenorhabditis elegans with 6 samples.

Results

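The genes described here are 7 protein-coding neighbours in a stretch of 58.6 kb on chromosome IV of Caenorhabditis elegans: K08D8.5, C32H11.3, C32H11.4, dod-24, F55G11.8, dod-22 and F55G11.2. They are 7 of the 46926 genes in the deposited gene table, were taken by name, and were chosen with the comparison of chaetocin with DMSO in view. That comparison is therefore given for them as a description, with no test. The libraries hold RNA of whole wild-type animals of strain N2, synchronized and grown to the transition from late L4 to young adult. The treated animals spent 5 h in buffer with 25 µM chaetocin, and the control animals spent the same time with the vehicle DMSO. Both groups were rotated in tubes with the bacterial food OP50, killed by heat, and each group has 3 libraries labelled as biological replicates. Each tube held many animals. Nothing in the labels ties the replicates to separate cultures, and the p-values then speak only for the spread among these 6 libraries, which may be technical. Depth was estimated at 32800000 to 52100000 fragments per library from the steps in low values.

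The dod genes are named as downstream of DAF-16, the FOXO transcription factor that insulin signalling holds out of the nucleus. dod-22 and dod-24 belong to a large family of nematode proteins with a CUB-like domain, many of which are secreted from the intestine. Genes of this family are widely used as readouts of the response to bacterial pathogens, which in worms runs in part through the p38 kinase PMK-1. Chaetocin, made by a fungus, blocks histone lysine methyltransferases and is used for that purpose.

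All 7 genes stood higher with chaetocin. Each had its 3 chaetocin libraries above its 3 DMSO libraries, as did 12.4% of the 15213 genes tested. All 7 were also among the genes called higher in the fit over all genes (limma, Benjamini-Hochberg adjusted p under 0.05), a group that made up 5.53% of those tested, while 2.92% were called lower. Because the same comparison chose the genes, nothing is read from either count. The ratio of mean FPKM (fragments scaled by transcript length and library size) ran between 1.26 for dod-24 and 3.23 for F55G11.2. The median log2 fold change of the 7 was 0.98, beside -0.000489 over all genes tested.

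In whole animals, more cells of a type and more RNA per cell cannot be told apart. Of 21 markers of cell types, the 3 called were intestinal genes, all higher with chaetocin. The intestinal actin gene act-5 stood at 249, 234 and 245 FPKM with chaetocin and 55.8, 57.3 and 70.2 FPKM with DMSO. The esterase gene ges-1 averaged 46.5 ± 0.889 FPKM with chaetocin and 38.6 ± 0.880 FPKM with DMSO, and the intermediate filament gene ifb-2 averaged 147 ± 4.47 FPKM with chaetocin and 117 ± 3.89 FPKM with DMSO (SD, n = 3 each; limma, adjusted p of 0.00544 and 0.000899). The other 2 did not pass and had lower means with chaetocin: the intestinal regulator elt-2 averaged 10.3 ± 0.0681 FPKM with chaetocin and 11.1 ± 0.0755 FPKM with DMSO, without overlap, and the proton pump gene vha-6 averaged 67.1 ± 3.96 FPKM with chaetocin and 74.4 ± 3.96 FPKM with DMSO (SD, n = 3 each; limma, adjusted p of 0.429 and 0.298). The summed level of the 5 intestinal markers ran between 496 and 529 FPKM with chaetocin and between 297 and 310 FPKM with DMSO. Most of that gap was act-5, since the other 4 summed to between 262 and 280 FPKM with chaetocin and between 240 and 243 FPKM with DMSO. Outside the intestine, the hypodermal marker rol-6 had 0.82, 0.26 and 0.14 FPKM with chaetocin, against 2.24, 2.25 and 0.95 FPKM with DMSO. Its groups did not overlap, but it did not pass (limma, adjusted p = 0.0854). The same held for the neuronal markers rab-3 and unc-119, lower with chaetocin, and the muscle marker myo-3, higher (limma, adjusted p of 0.150, 0.392 and 0.307). No marker of any of the 6 cell types was at 0 in any library. The part of these shifts in the levels of the cluster was not tested.

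**Figure D1:**
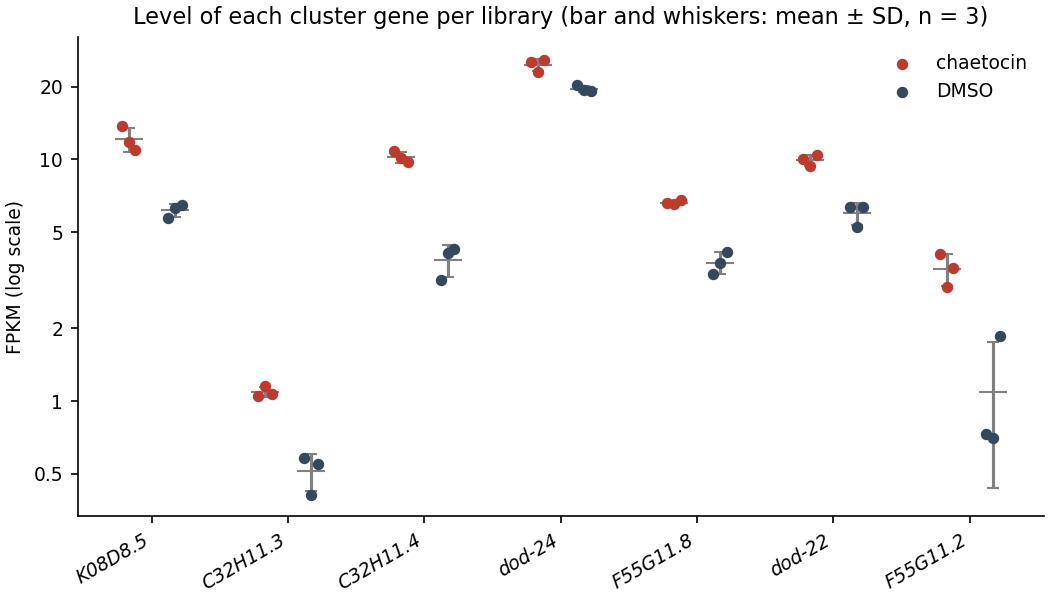
FPKM of each of the 7 cluster genes in the 3 chaetocin libraries and the 3 DMSO libraries, on a log scale, with genes in chromosome order and bars for mean ± SD. The groups do not overlap for any gene, and the narrowest gap is that of dod-24, between 22.97 FPKM with chaetocin and 20.21 FPKM with DMSO.

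K08D8.5 (WBGene00010659) opens the cluster on the minus strand at 12910647 to 12912129 (WBcel235). It is known as a gene induced by bacterial infection. It had 13.67, 11.79 and 10.92 FPKM with chaetocin, against 5.72, 6.26 and 6.45 FPKM with DMSO. Its means differed 1.97-fold, and the lowest chaetocin library was 1.69 times the highest DMSO library. On the log2(FPKM + 0.1) scale the fold change was 0.98 ± 0.10 (SE of the fit).

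C32H11.3 (WBGene00007866, plus strand, 12918556 to 12920393) was the lowest of the 7 in both groups. It had 1.05, 1.15 and 1.07 FPKM with chaetocin, against 0.58, 0.41 and 0.55 FPKM with DMSO. This is a ratio of means of 2.12 and a log2 fold change of 0.98 ± 0.20 on the log2(FPKM + 0.1) scale, and at a pseudocount of 1 FPKM the fold change was 0.47. The values rest on an estimated 36.6 to 48.6 fragments per chaetocin library and 20.7 to 28.9 fragments per DMSO library. It is the only one of the 7 genes with a DMSO library under 0.5 FPKM, the level asked of 3 libraries before a gene was tested.

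C32H11.4 (WBGene00007867, plus strand, 12921264 to 12923296) starts 871 bases after the end of C32H11.3. It had 10.77, 10.09 and 9.74 FPKM with chaetocin, against 3.18, 4.09 and 4.27 FPKM with DMSO. Its chaetocin libraries were at least 2.28 times its DMSO libraries, the widest gap in the cluster. Its mean was 2.65 times as high with chaetocin, a log2 fold change of 1.41 ± 0.12. C32H11.3 and C32H11.4, adjacent and on the same strand, thus differed 9.36-fold in level with chaetocin and 7.49-fold with DMSO.

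dod-24 (WBGene00007875, minus strand, 12940106 to 12941354) lies alone, 16810 bases from the nearest other member. It had the highest level of the 7 and the smallest difference. Its libraries stood at 25.20, 22.97 and 25.74 FPKM with chaetocin, against 20.21, 19.33 and 19.23 FPKM with DMSO. The ratio of means was 1.26 and the log2 fold change 0.34 ± 0.06. dod-24 took 35.3 to 37.8% of the summed FPKM of the 7 genes with chaetocin and 44.9 to 50.4% with DMSO.

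F55G11.8, dod-22 and F55G11.2 sit together at the other end of the cluster. F55G11.8 (WBGene00010128, plus strand, 12962808 to 12964645) had 6.57, 6.51 and 6.76 FPKM with chaetocin, against 3.34, 3.74 and 4.12 FPKM with DMSO. Its chaetocin libraries were the tightest of the cluster, with a coefficient of variation of 1.97%. Its mean was 1.77-fold higher with chaetocin, a log2 fold change of 0.83 ± 0.09.

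dod-22 (WBGene00010125, plus strand, 12965374 to 12967392) begins 729 bases after F55G11.8 ends. It is a common marker of intestinal immune responses. It had 10.04, 9.36 and 10.37 FPKM with chaetocin, against 6.32, 5.26 and 6.35 FPKM with DMSO. The ratio of means was 1.66 and the log2 fold change 0.74 ± 0.09. dod-22 is the only gene of the cluster with more than 1 transcript in the deposited transcript table. The transcript F55G11.5a.1 carried 76.0, 88.1 and 86.02% of its FPKM with chaetocin and 85.1, 76.2 and 73.4% with DMSO. These shares overlapped between the groups. F55G11.5a.1 itself stood at 7.63, 8.24 and 8.92 FPKM with chaetocin, against 5.38, 4.00 and 4.66 FPKM with DMSO, without overlap. The minor transcript F55G11.5b.1 overlapped, at 2.41, 1.11 and 1.45 FPKM with chaetocin and 0.94, 1.25 and 1.69 FPKM with DMSO.

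F55G11.2 (WBGene00010123, minus strand, 12967445 to 12969289) faces dod-22 tail to tail, its annotated end 53 bases from that of dod-22. It had 4.06, 2.97 and 3.55 FPKM with chaetocin, against 0.73, 0.70 and 1.85 FPKM with DMSO. DMSO replicate 3 was more than 2 times either other DMSO library and still lay below every chaetocin library. Among the 7 it had the largest ratio of means, 3.23, and its log2 fold change of 1.74 ± 0.35 had the largest error. Leaving out DMSO replicate 3 gave 2.14 on the same scale, and leaving out DMSO replicate 1 or 2 gave 1.54 and 1.52. At a pseudocount of 1 FPKM the log2 fold change of F55G11.2 was 1.16, below the 1.23 of C32H11.4. DMSO replicates 1 and 2 of F55G11.2 rest on an estimated 29.9 and 30.7 fragments. None of the 7 genes overlaps another annotated gene. Whether counting used strand is not stated, and reads running past the facing ends of dod-22 and F55G11.2 would then be uncertain.

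The order of the levels differed slightly between the groups. With chaetocin it ran dod-24, K08D8.5, C32H11.4, dod-22, F55G11.8, F55G11.2 and C32H11.3 from high to low, and the C32H11.4 and dod-22 libraries overlapped. With DMSO dod-22 stood above C32H11.4, and the overlapping neighbours in the order were K08D8.5 with dod-22 and C32H11.4 with F55G11.8. The summed FPKM of the 7 genes was 71.36, 64.84 and 68.15 with chaetocin, against 40.08, 39.79 and 42.82 with DMSO, a ratio of means of 1.67. In unscaled FPKM, DMSO replicate 3 was the highest DMSO library for 5 of the 7 genes, and chaetocin replicate 2 the lowest chaetocin library for 4. These 2 libraries also had the largest and smallest scaling factors, 1.027 and 0.977, so fewer genes followed this order after scaling.

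**Figure D2:**
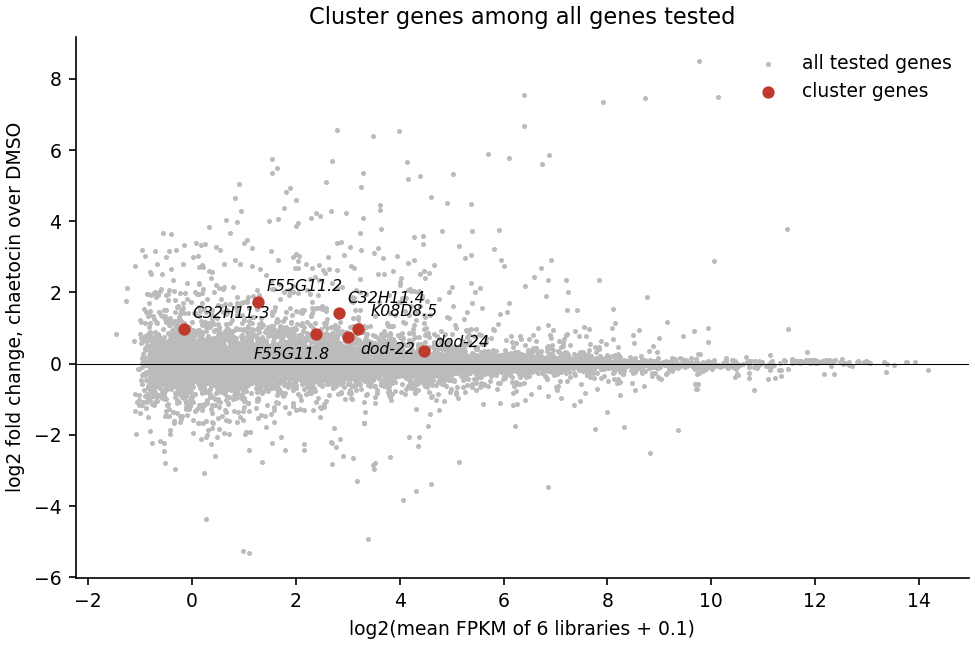
Each point is 1 of the 15213 genes tested, by log2 of its mean FPKM plus 0.1 over 6 libraries and its log2 fold change of chaetocin over DMSO, with the 7 cluster genes in red. The cluster genes lie between 0.34 (dod-24) and 1.74 (F55G11.2), above 88.9 to 98.4% of the genes tested.

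Among all genes tested, the levels of the cluster were low to middling. By mean level, C32H11.3 stood above 6.97% of the genes tested, F55G11.2 above 23.2% and dod-24 above 60.1%. By log2 fold change, for which the genes were chosen, dod-24 stood above 88.9% of the genes tested and the other 6 above 95.2% (dod-22) to 98.4% (F55G11.2). In the authors' deposited table of 16062 coding genes, with its sign turned to chaetocin over DMSO, the 7 log2 fold changes ran between 0.34 (dod-24) and 1.73 (F55G11.2). That authors' deposited table gives C32H11.3 a mean normalized count of 32.3 and dod-24 one of 779. Of the 7, F55G11.2, with 59.0 in the authors' deposited table, had the lowest count relative to the fragments estimated from its FPKM. Its ratio was 0.722, against a median of 1.06 over 7890 genes with a single transcript, of which 6.63% had a lower ratio. RSEM, the tool named for the estimates, divides fragments that match several genes. Levels would be uncertain wherever members share near-identical stretches, which was not examined.

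The genes around and between the members were taken by position. Within the cluster and 20 kb on either side the annotation holds 37 other genes, 27 of them protein-coding, and 11 of the 37 reached the level needed for the test. Of these 11, 2 passed the test as higher and 0 as lower, beside 5.53% and 2.92% of all genes tested (limma, adjusted p under 0.05). Of the 11, 4 had an unadjusted p under 0.05. One of the 2, K10D11.2, reached the filter through its chaetocin libraries alone and had to differ, and without it 1 of 10 rose. Their median log2 fold change was 0.06. The members had been picked from this same stretch with the results known, so the difference between members and neighbours was not tested.

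**Figure D3:**
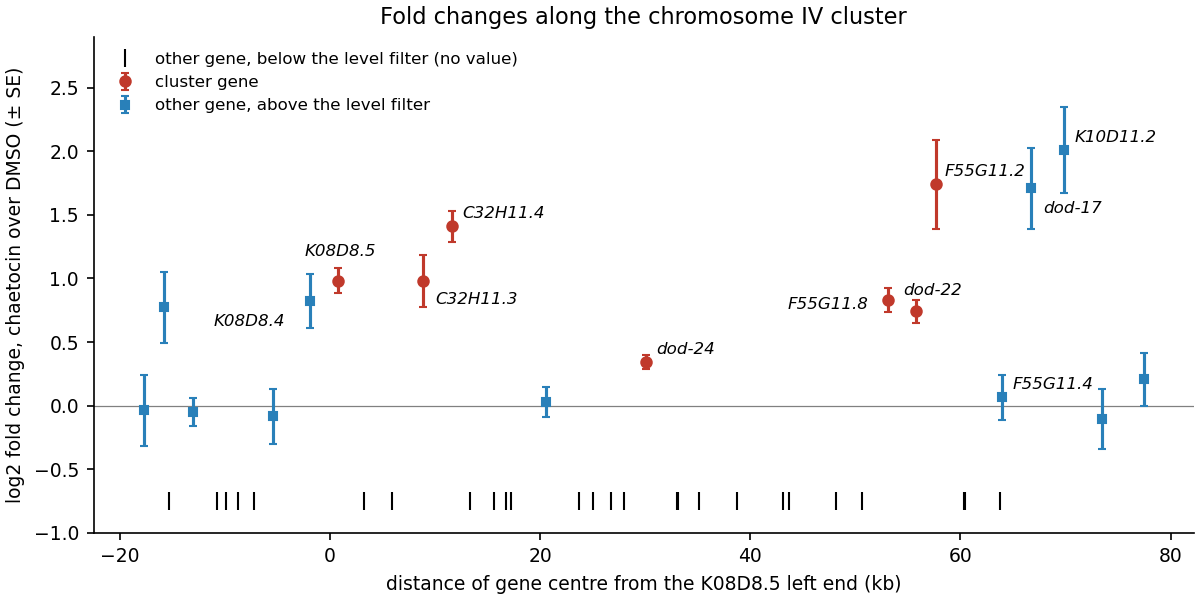
Log2 fold change of chaetocin over DMSO, with the SE of the fit, against distance from the left end of K08D8.5 in kb, for the 7 cluster genes (red circles) and the 11 other tested genes (blue squares), with ticks for genes below the level filter. Among the blue squares, K10D11.2 at 2.01 and dod-17 at 1.71 passed the test, and 1 of the 11 lies between the first and the last cluster gene.

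The 2 neighbours that passed lie together past F55G11.2. dod-17 (chromosome IV, 12976303 to 12978343), another gene named for DAF-16, stood at 2.66, 2.43 and 2.89 FPKM with chaetocin, against 0.82, 0.42 and 1.19 FPKM with DMSO. Its log2 fold change was 1.71 ± 0.32 (limma, adjusted p = 0.0204). It missed the threshold when chaetocin replicate 1, 2 or 3 was left out (adjusted p of 0.0719, 0.0668 and 0.076) and without DMSO replicate 1 (0.0617). K10D11.2 (12978986 to 12981991) stood at 1.68, 1.45 and 1.54 FPKM with chaetocin, against 0.47, 0.15 and 0.40 FPKM with DMSO (log2 fold change 2.01 ± 0.34; limma, adjusted p = 0.0125). All 3 DMSO libraries of K10D11.2 lay under the filter, so its call is not read as support.

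Other genes of the stretch did not pass. K08D8.4, 649 bases from K08D8.5, had 4.65, 3.82 and 3.18 FPKM with chaetocin, against 2.50, 1.61 and 2.45 FPKM with DMSO. The groups did not overlap, but the log2 fold change of 0.83 ± 0.21 missed the threshold (limma, adjusted p = 0.068). F55G11.4, which lies between F55G11.2 and dod-17, averaged 5.53 ± 1.35 FPKM with chaetocin and 5.27 ± 0.665 FPKM with DMSO (SD, n = 3 each; limma, adjusted p = 0.881).

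Genes between the members were mostly at or near 0. Of 13 other protein-coding genes between K08D8.5 and F55G11.2, 0 reached the filter, 3 were listed at 0 in all 6 libraries, and no library exceeded 1.12 FPKM. They include irg-6, an infection response gene 593 bases from K08D8.5, which had 0.04, 0.02 and 0.05 FPKM with chaetocin, against 0, 0.03 and 0 FPKM with DMSO. dod-21, between C32H11.4 and dod-24, had 0.03, 0.11 and 0.10 FPKM with chaetocin, against 0, 0.02 and 0.06 FPKM with DMSO. dct-19, 1579 bases from dod-24, and the receptor-family gene srz-15, 1263 bases from C32H11.3, were listed at 0 throughout. F55G11.7, 653 bases from F55G11.8, had 0.08, 0.05 and 0.16 FPKM with chaetocin, against 0.02, 0.04 and 0 FPKM with DMSO. srlf-4, 281 bases from C32H11.4, reached 0.58 FPKM in chaetocin replicate 1, against at most 0.29 FPKM with DMSO. srlf-6 (WBGene00007874), 1035 bases from dod-24, had 0.58, 0 and 0 FPKM with chaetocin, against 1.12, 0 and 0 FPKM with DMSO. srlf-5, 2570 bases from C32H11.4, was at 0 FPKM with chaetocin, against 0.05, 0.05 and 0 FPKM with DMSO. F55G11.6 reached 0.06 FPKM with chaetocin and 0.03 FPKM with DMSO. Past F55G11.2, the pseudogene WBGene00014771 reached 0.06 FPKM with chaetocin and 0 with DMSO, and 21ur-14360 was at 0. The 1 tested gene inside the cluster, the pseudogene WBGene00007870, averaged 29.1 ± 2.50 FPKM with chaetocin and 29.0 ± 4.50 FPKM with DMSO (SD, n = 3 each; limma, adjusted p = 0.919). Detected genes, some of them next to each other, thus lay between runs of near-silent genes. At the low levels of the near-silent genes a difference was not detectable.

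The other dod genes, listed by name and not sorted by the direction in which DAF-16 affects them, went both ways. They number 8, with dod-21 inside the stretch and dod-17 beside it. Of these 8, 6 were tested, 2 rose and 1 fell, beside 5.53% and 2.92% of all genes tested. The median log2 fold change of the 6 was 0.59. dod-23 rose to 167, 171 and 197 FPKM with chaetocin, against 47.2, 44.9 and 52.9 FPKM with DMSO (log2 fold change 1.89 ± 0.07; limma, adjusted p = 1.76e-05). dod-17, described above, was the other that rose. dod-3 fell to 159, 137 and 136 FPKM with chaetocin, against 506, 486 and 502 FPKM with DMSO (log2 fold change -1.78 ± 0.06; limma, adjusted p = 1.0e-05). dod-19, dod-6 and dod-18 had log2 fold changes of 0.91, 0.27 and -0.08 and did not pass (limma, adjusted p of 0.34, 0.0718 and 0.577). dod-6 was called higher when DMSO replicate 3 was left out (adjusted p = 0.0286).

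The kinase cascade that leads to PMK-1 was represented by 6 genes, all of them tested. Of these 1 rose, beside 5.53% of all genes tested, and so few genes allow no reading of the count. It was vhp-1, the phosphatase that switches PMK-1 off. It stood at 18.6, 17.1 and 19.9 FPKM with chaetocin, against 13.6, 13.4 and 11.6 FPKM with DMSO (log2 fold change 0.54 ± 0.09; limma, adjusted p = 0.0134), which missed the threshold when chaetocin replicate 1 or 3 was left out (adjusted p of 0.0517 and 0.0547). pmk-1 itself averaged 12.9 ± 0.516 FPKM with chaetocin and 12.5 ± 0.617 FPKM with DMSO (SD, n = 3 each; limma, adjusted p = 0.688). The adaptor tir-1 and the transcription factor atf-7 had log2 fold changes of 0.29 and 0.01 and did not pass. The kinases nsy-1 and sek-1, at -0.19 and -0.17, were lower with chaetocin without overlap between the groups. They did not pass either (limma, adjusted p of 0.173 and 0.151). Of the 6 pathway genes, vhp-1 included, 4 had an unadjusted p under 0.05 (limma). The activity of PMK-1 depends on phosphorylation, which RNA levels do not show.

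Some genes used as readouts of intestinal immunity also rose, and some did not pass. Of 12 listed symbols 11 were matched and 9 tested. Of these 9, 5 rose and 0 fell, beside 5.53% and 2.92% of all genes tested. The list was chosen with earlier results of these data known, so nothing is read from these counts. The median log2 fold change of the 9 was 0.48. The lysozyme gene lys-2 had 381, 393 and 376 FPKM with chaetocin, against 77.4, 72.2 and 80.2 FPKM with DMSO. The lectin gene clec-67, hpo-6, lys-8 and the lectin gene clec-85 were the others, with log2 fold changes of 2.69 ± 0.24, 2.02 ± 0.11, 0.48 ± 0.03 and 0.48 ± 0.08. clec-85 missed the threshold without chaetocin replicate 1 or 2 (adjusted p of 0.0523 and 0.0676) and without DMSO replicate 1 or 2 (0.062 and 0.0592). The lectin gene clec-60 had the largest difference downward, at 1.88, 1.87 and 1.81 FPKM with chaetocin, against 3.52, 2.37 and 3.02 FPKM with DMSO. Its groups did not overlap, but its log2 fold change of -0.62 ± 0.16 missed the threshold (limma, adjusted p = 0.0746), and it was called lower without DMSO replicate 2 (adjusted p = 0.0477). irg-4, like dod-22 and dod-24, encodes a CUB-like protein. It had 3.52, 3.63 and 3.43 FPKM with chaetocin, against 3.86, 4.19 and 5.01 FPKM with DMSO. Its log2 fold change was -0.27 ± 0.11 (limma, adjusted p = 0.246). irg-5 had 0.95, 0.82 and 0.81 FPKM with chaetocin, against 1.05, 0.78 and 1.22 FPKM with DMSO (limma, adjusted p = 0.686). clec-60, irg-4 and irg-5 thus had lower means with chaetocin, unlike all 7 cluster genes, and the difference between them and the cluster was not tested.

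**Figure D4:**
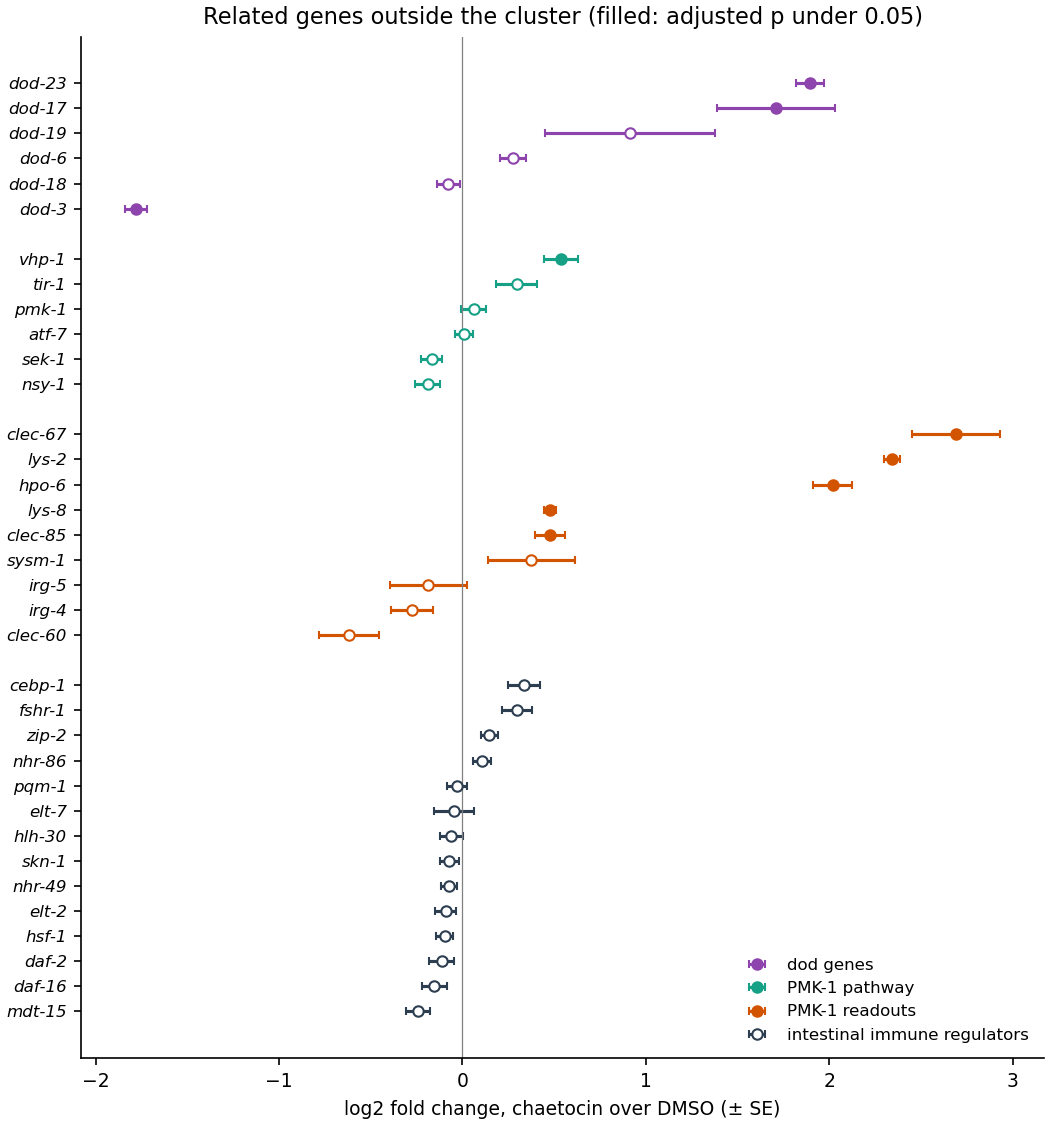
Log2 fold change of chaetocin over DMSO with the SE of the fit for tested dod genes other than the members, PMK-1 pathway genes, readouts of intestinal immunity and intestinal regulators, 1 of which is not drawn; filled symbols have an adjusted p under 0.05. Filled symbols stand at 1.89 and 1.71 (dod-23, dod-17), -1.78 (dod-3), 0.54 (vhp-1) and 5 readouts, and no regulator drawn is filled.

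Of 15 regulators of intestinal stress and immunity, 0 passed the test in either direction, and 4 had an unadjusted p under 0.05 (limma). Over all genes tested 5.53% were called higher and 2.92% lower, so nothing is read from a count of 0 among 15. daf-16 averaged 75.1 ± 3.45 FPKM with chaetocin and 84.5 ± 5.89 FPKM with DMSO (SD, n = 3 each; limma, adjusted p = 0.266), and it was called lower when DMSO replicate 3 was left out (adjusted p = 0.0211). So was the mediator subunit gene mdt-15 (adjusted p = 0.0198). The zinc-finger factor pqm-1, which acts opposite to DAF-16 on many of its targets, averaged 42.5 ± 1.89 FPKM with chaetocin and 43.9 ± 2.98 FPKM with DMSO (limma, adjusted p = 0.821). The intestinal GATA factor elt-2 is given above. The largest difference upward was that of cebp-1, by 0.33 ± 0.09 on the log2 scale (limma, adjusted p = 0.0669). The largest downward was that of mdt-15, which averaged 56.6 ± 3.61 FPKM with chaetocin and 67.7 ± 3.68 FPKM with DMSO, without overlap (SD, n = 3 each; log2 fold change -0.24 ± 0.06; limma, adjusted p = 0.0768).

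Genes with a profile like that of the cluster were sought over the 6 libraries by the root mean square difference of centred log2 values from the mean of the 7 members. The measure holds the treatment difference that chose the members, so it is a description. The members themselves lay between 0.11 (K08D8.5) and 0.50 (F55G11.2) from their own mean. Of 13645 other genes with a mean of at least 1 FPKM, the nearest were C45B2.1 (0.04), T16G1.7 (0.06), the C-type lectin gene clec-62 (0.06), the dehydrogenase-family gene dhs-4 (0.06) and the cytochrome b5 gene cytb-5.1 (0.07). clec-62, on chromosome II, had 52.5, 51.4 and 54.1 FPKM with chaetocin, against 25.9, 26.6 and 29.97 FPKM with DMSO. T16G1.7, on chromosome V, had 18.3, 17.8 and 19.2 FPKM with chaetocin, against 8.51, 8.41 and 9.80 FPKM with DMSO. None of the 5 lies on chromosome IV.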

How the data were processed

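The authors deposited FPKM per library for genes and transcripts, in tables whose names call them raw. They were read as FPKM because columns summed to between 1232966 and 1326067. Per the submitters' processing notes, reads were handled with STAR 2.7.9a, RSEM 1.3.1 and Trimmomatic 0.36 on build WBcel235; per the labels' protocols, libraries came from a SMARTer messenger RNA kit. The authors also deposited a comparison table with log2 fold changes of DMSO over chaetocin, their standard errors (a score column), p-values and a mean normalized count (a signal) per coding gene; its p-values are not used. All positions come from the Ensembl annotation of WBcel235. No file holds counts per library. In single-transcript genes of 400 to 700 bases, low FPKM values fell on whole-fragment steps, from which depths were estimated. Per library, 95.2 to 98.3% of such values lay within 0.25 fragments of a whole number. Step and fragment length were fitted to these same values, and evenly spread values would often lie within that tolerance too. The share therefore describes the fit and is no independent check of the depths. Fragment numbers in the text are such estimates, and no counting interval is given.

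Values were fitted as log2(FPKM + 0.1) with limma 3.58.1 (R 4.3.3), for 15213 genes that reached 0.5 FPKM in 3 or more libraries. Library scaling used a trimmed mean of log ratios without weights (30% of ratios, 5% of means trimmed at each end; factors 0.977 to 1.03), with variance moderated along the mean level, two-sided tests and Benjamini-Hochberg adjustment over all genes at 0.05. Levels, SDs and ratios are of deposited FPKM; log2 fold changes are from the fit and understate the change of low genes. On simulated data with 15213 genes, 200 of them changed, 56% of 1.5-fold and 70% of 2-fold changes were recovered. For 4-fold and 8-fold changes it was 86% and 94%. The fit of the real data called 842 genes higher and 444 lower, many more than were changed in the simulation. Recovery in the real fit may therefore differ and was not measured.

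The members and lists were chosen with earlier results of these data known. The filter, pseudocount and scaling follow an earlier analysis of these data. Scaling factors were first computed over all genes and were changed to the genes tested after the counts of calls had been seen. The rule that settles a library's step size was also adjusted after the smaller of 2 possible steps had been picked for chaetocin replicate 3. Named genes are the members; up to 4 called genes with the smallest adjusted p per list, with pmk-1, daf-16, pqm-1 and elt-2; the 2 nearest neighbours of each member; and the 5 nearest profiles. Other genes, such as dod-19, irg-4, irg-5, cebp-1, clec-60, clec-85, mdt-15, dod-6, F55G11.4 and rol-6, were named after their values were seen. A list by protein sequence, and promoter and protein sequences, were not analysed here, and the values of 1 regulator are not reported here.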

Additional observations from a re-analysis of the deposited data

How the results depend on the processing

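All 7 cluster genes stayed higher with chaetocin at a pseudocount of 1 or 0.01, on unscaled FPKM, with the replicate block, without each library and in the authors' deposited table. Their median log2 fold change ran between 0.859 and 1.001 without single libraries, was 0.996 in the authors' table, and was 0.70 at a pseudocount of 1, which shrinks low genes by construction. With scaling factors over all genes, an alternative chosen after seeing the data, 813 genes were higher and 481 lower, the median was 0.97, and the counts of the other lists were as given. Called neighbours numbered 0 to 3 higher without single libraries and 1 with a filter of 2 FPKM, under which fewer genes were tested; with no filter 1 was lower, K08D8.9. K10D11.2 was not tested without any 1 chaetocin library or with the stricter filter. Called dod genes numbered 1 to 3 higher, PMK-1 pathway genes 0 to 1 higher, readouts 4 to 5 higher and 0 to 1 lower, and regulators 0 to 3 lower without single libraries. Over all genes 538 to 852 were higher and 265 to 504 lower. The log2 fold change of pqm-1 ran between -0.088 and 0.014, turning sign without DMSO replicate 2. The cause of these shifts was not tested. Same-numbered libraries deviated together only weakly (correlations of 0.11, 0.07 and -0.03), and differently numbered ones ran between -0.15 and 0.08. The codes of the DMSO libraries also skip a number that the chaetocin codes hold, and the numbers were not read as pairs. With the replicate block, which rests on these numbers, 255 genes were called lower and 582 higher, and 0 PMK-1 pathway genes (vhp-1, limma, adjusted p = 0.0676). The planned protein family and promoter alternatives were not run. C32H11.3 and the near-silent genes between members are those that depth limits most.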

Other observations

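Runs of genes called higher with chaetocin were also counted along all chromosomes. Windows were as long as the cluster, 58.6 kb, and each started at a called gene. Where windows overlapped, the one with more called genes was kept, and on a tie the one with the lower start. This is a description made after the values were seen, with no test. There were 6 kept windows with at least 7 called genes. The fullest, on chromosome V from 12903550 to 12946858, held 11 called of 19 tested genes, among them T16G1.3, T16G1.4, T16G1.5, T16G1.6, T16G1.7 and the lipase gene lipl-1. A window on chromosome II from 9768458 to 9807569 held 7 of 9, of which 6 were cytochrome P450 genes of the cyp-13A group and the other the aquaporin gene aqp-10. On chromosome IV the window from 12866109 to 12923296 held 7 of 14: the lectin genes clec-186 and clec-187, ZK896.5 and ZK896.4 beside K08D8.5, C32H11.3 and C32H11.4. The next, from 12940106 to 12981991, held 6 of 10, namely dod-24, F55G11.8, dod-22, F55G11.2, dod-17 and K10D11.2. The window starting at K08D8.5 held the 7 members as its 7 called genes and 1 other tested gene. It tied with the window from 12866109 and was left out for its higher start. These windows on chromosome IV count members that this same comparison chose, and dod-17 and K10D11.2 carry the limits given with their values above.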
